A study of Saccharomyces cerevisiae with 13 samples.

Results

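The DNA replication machinery was followed as 34 genes of *S. cerevisiae* among the 7126 rows of the deposited gene lists. The genes were taken by name from a fixed list, not by their values. They code for the origin recognition complex (*ORC1* to *ORC6*), the loading factor Cdc6, the MCM helicase (*MCM2* to *MCM7*), Cdc45, DNA polymerase α with primase (*POL1*, *POL12*, *PRI1*, *PRI2*), the listed subunits of DNA polymerase δ (*POL3*, *POL32*), DNA polymerase ε (*POL2*, *DPB2*, *DPB3*, *DPB4*), the sliding clamp PCNA (*POL30*), the clamp loader (*RFC1* to *RFC5*), the single-stranded DNA binding protein RPA (*RFA1* to *RFA3*) and DNA ligase (*CDC9*). All 34 genes carried the same name in every list, and all 34 passed the filter on low counts in every fit.

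The study sequenced 13 QuantSeq 3′ mRNA libraries of the haploid laboratory strain BY4741, in 5 groups. Of the cells without plasmid, WT treated with caffeine (50 mM for 1 h) gave 2 libraries, as did WT without treatment. The *yap1* deletion mutant with the empty vector pRS426ADH, WT with the *YAP1* overexpression plasmid pRS426ADH-YAP1 and WT with pRS426ADH had 3 libraries each, and their labels name no caffeine treatment. Yap1 is the main transcription factor of the oxidative stress response in this yeast. The vector is a high-copy plasmid with the *ADH1* promoter and *URA3* as marker, so all 9 plasmid libraries came from cells that carry it. The second caffeine library is labelled 50 mM in its title and 51 mM in its treatment field. The labels give YEPD or minimal SD medium without saying which library had which, and they do not say whether replicates were separate cultures, so that p-values measure only the spread between these libraries, which may be technical.

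The depth was 19375047 to 25609092 counts per plasmid library, of which rRNA rows took 43.8% to 74.97%, and 15508616 to 17387215 counts per library without plasmid, of which they took 14.7% to 27.4%. The 34 genes together had 11145 to 27887 counts per library. For *YAP1* itself, the *yap1* mutant had 2 to 22 counts and the overexpression strain 23285 to 25251, against 635 to 722 in WT with vector. *URA3* had 0 counts in every library without plasmid. *LEU2* and *MET17* were at 0 in all 13 libraries, while *LYS2*, which the methods list as deleted in BY4741, had 312 to 897 counts. *HIS3*, which the methods list as *his3*Δ1, had 744 to 1974 counts. The **a** cell genes *MFA2* and *STE2* had at least 1240 counts in every library, and *MFA1* at least 352. The α cell receptor gene *STE3* had at most 41, *MF(ALPHA)1* at most 57 and *MF(ALPHA)2* at most 186. Replicate 2 of WT with vector stood apart: the SD of its log2 deviations from its group mean over the 34 genes was 0.42. It was 0.30 and 0.27 in replicates 1 and 3 of that group, and 0.13 to 0.20 in the libraries of the other groups.

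Replication is prepared in late mitosis and G1, when the origin recognition complex and Cdc6 load the MCM helicase onto origins. On entry into S phase Cdc45 joins the loaded helicase and the DNA is unwound. DNA polymerase α with primase then lays down primers, the clamp loader places PCNA on them, polymerase ε extends the leading strand and polymerase δ the lagging strand, and the ligase seals the fragments. In budding yeast many of these genes are transcribed in a wave at the G1 to S transition by the factor MBF, made of Mbp1 and Swi6, which binds the MluI cell cycle box (ACGCGT). Its relative SBF, made of Swi4 and Swi6, binds the Swi4 cell cycle box (CACGAAA).

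The MluI cell cycle box was common upstream of the 34 genes. ACGCGT, which reads the same on both strands, lay within 500 bp upstream of the start codon of 16 of the 34 genes (47.1%), against 325 of 6002 nuclear protein-coding genes (5.41%). The 16 genes held 22 matches at 103 to 445 bp from the start codon, and 6 of them held 2 matches. Among the 12 genes of the origin recognition complex and the MCM helicase only *ORC6* and *MCM5* had the box. Among the other 22 genes 14 had it, namely *CDC6*, *CDC45*, *POL1*, *POL12*, *PRI2*, *POL3*, *POL32*, *POL2*, *DPB2*, *POL30*, *RFC4*, *RFA1*, *RFA2* and *CDC9*. CACGAAA, searched on both strands and able to overlap ACGCGT by at most 1 base, lay upstream of *ORC6*, *MCM7* and *RFC1*, which is 3 of 34 genes (8.82%), against 429 of 6002 genes (7.15%). A match is a sequence feature and not a measured binding site.

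The stretches from 230 to 91 bp upstream of the start codon are shown for the 5 genes with the box that changed most with caffeine, so that the boxes can be set beside the values below. *RFA1* is shown too, because it has 2 boxes and did not pass the test with caffeine, and was chosen after its values were seen. The sequences are from the RefSeq R64 assembly, written 5′ to 3′ on the strand of each gene, and capitals mark ACGCGT. They lie at chrII:425857-425996 (minus strand, *POL30*), chrXIV:429857-429996 (plus strand, *POL1*), chrXIV:147982-148121 (plus strand, *POL2*), chrXII:346032-346171 (minus strand, *CDC45*), chrII:153701-153840 (minus strand, *POL12*) and chrI:158710-158849 (minus strand, *RFA1*).
POL30: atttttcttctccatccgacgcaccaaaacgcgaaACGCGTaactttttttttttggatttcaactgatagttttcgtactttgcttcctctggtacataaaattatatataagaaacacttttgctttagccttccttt
POL1: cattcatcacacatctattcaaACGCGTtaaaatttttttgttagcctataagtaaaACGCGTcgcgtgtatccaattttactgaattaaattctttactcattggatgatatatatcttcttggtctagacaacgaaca
POL2: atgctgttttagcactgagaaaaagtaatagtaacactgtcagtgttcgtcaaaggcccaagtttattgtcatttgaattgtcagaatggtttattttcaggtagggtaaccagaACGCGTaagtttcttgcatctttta
CDC45: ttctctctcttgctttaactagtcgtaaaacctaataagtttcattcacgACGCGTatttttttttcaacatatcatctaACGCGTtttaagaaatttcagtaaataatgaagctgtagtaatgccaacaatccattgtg
POL12: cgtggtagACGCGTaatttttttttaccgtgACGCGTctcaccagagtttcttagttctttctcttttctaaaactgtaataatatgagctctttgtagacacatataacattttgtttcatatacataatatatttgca
RFA1: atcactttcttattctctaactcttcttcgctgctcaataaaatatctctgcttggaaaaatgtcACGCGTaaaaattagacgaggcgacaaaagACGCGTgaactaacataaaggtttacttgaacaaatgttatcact
*POL1*, *CDC45*, *POL12* and *RFA1* had 2 boxes in this stretch, and *POL30* and *POL2* had 1.

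Caffeine-treated WT was compared with untreated WT to ask which genes respond to the drug. Of the 34 genes, 21 fell, none rose and 13 did not pass the test. None had a positive value at an unadjusted p under 0.05, as 26.3% of all genes had. DESeq2 also gave 21 falls and no rise, of which 20 were shared, with *MCM3* in place of *DPB3*. Over all 6759 genes tested, 23.6% fell and 22.2% rose. The median log2 fold change was -0.90 over the 34 genes and -0.003 over all genes tested, and 32 of the 34 values were negative. In 28 of the 34 genes both caffeine libraries lay below both untreated libraries, and in 2 genes, *ORC4* and *PRI1*, both lay above. Over all genes these shares were 37.6% and 37.4%. Calls were made with the quasi-likelihood test of edgeR at a Benjamini-Hochberg adjusted p under 0.05 over all genes tested, and levels are given as CPM, the counts on a gene per 1000000 counts of the library after TMM normalization. With libraries left out in turn the number of genes that fell was 10 without untreated replicate 1, 15 without untreated replicate 2, 15 without caffeine replicate 1 and 11 without caffeine replicate 2, while 14.5% to 17.9% of all genes fell. In each of these fits 1 library stood alone and was taken to vary like the other group. *ORC6*, *CDC45*, *POL1*, *POL12*, *PRI2*, *POL2*, *DPB4*, *POL30* and *RFC3* remained called in all 4, and also with scaling by library size only.

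**Figure D1:**
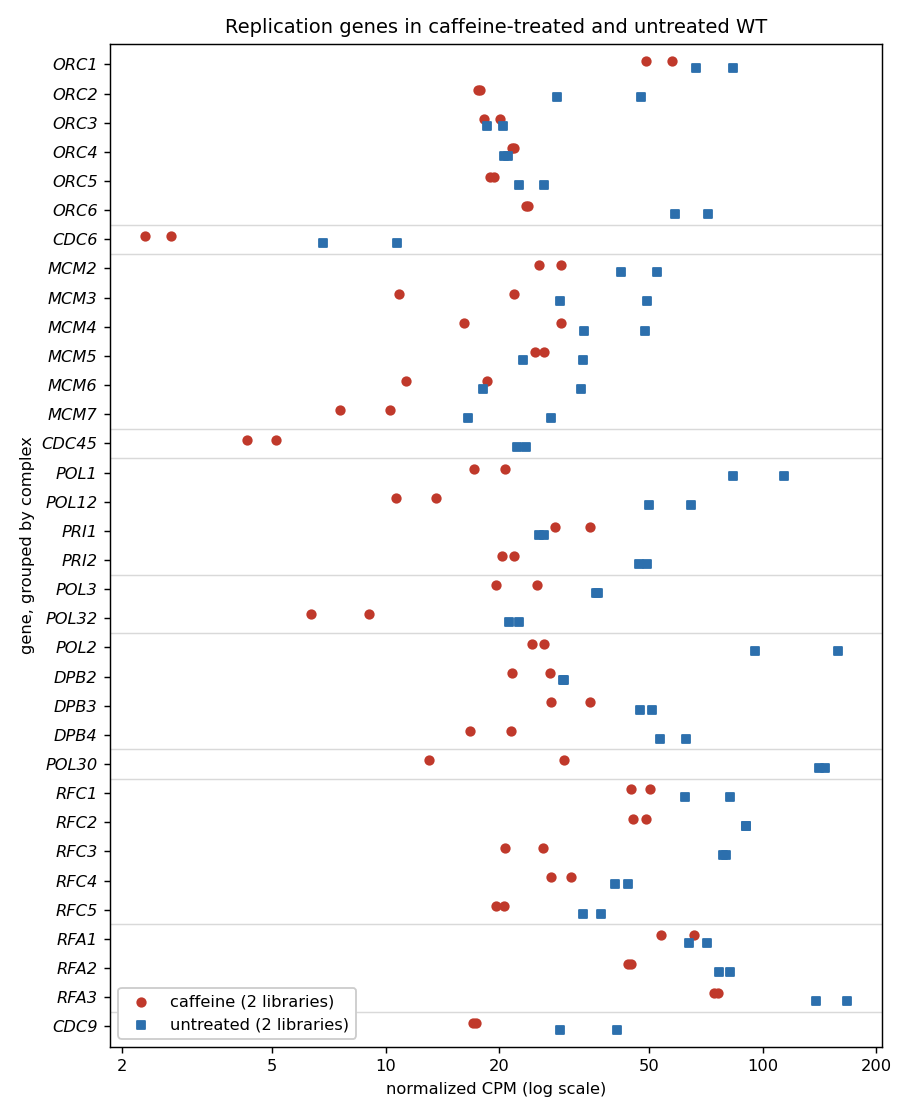
Normalized CPM of the 34 replication genes in each library, on a log axis, for caffeine-treated WT (red circles) and untreated WT (blue squares), with grey lines between complexes. The caffeine libraries lie below the untreated ones in 28 genes, and *POL30*, *POL1*, *POL2*, *CDC45* and *POL12* show the widest gaps.

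*POL30*, the PCNA gene, had the largest fall of the 34. It had 13.1 and 29.8 CPM in the caffeine libraries, against 146.1 and 141.3 CPM in the untreated libraries. The untreated libraries were alike and the caffeine libraries differed from each other by more than 2-fold, yet both lay far below. The log2 fold change was -2.75 ± 0.41 (SE, adjusted p from edgeR = 0.0037). *POL30* ends 160 bp from the end of *RFC5*, which lies on the other strand, and the counts were taken as not separated by strand.

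The loading step at origins was uneven among its genes. Of the 6 origin recognition genes, *ORC2* and *ORC6* fell and the other 4 did not pass the test, with values from -0.50 for *ORC1* to 0.06 for *ORC4*. Over all genes tested 23.6% fell. *ORC6*, the smallest subunit, had 23.6 and 23.9 CPM with caffeine, against 71.6 and 58.7 CPM untreated, a log2 fold change of -1.46 ± 0.21 (SE, adjusted p = 0.0031, edgeR). By contrast *ORC3* had 18.2 and 20.1 CPM with caffeine, against 20.5 and 18.6 CPM untreated, and *ORC4* had 21.9 and 21.7 CPM, against 21.1 and 20.6 CPM. The groups thus overlapped for *ORC3* and were close for *ORC4*, while they were far apart for *ORC6*. *ORC6* ends 52 bp from the end of *TOM71*, which lies on the other strand. *ORC5* had a log2 fold change of -0.35 ± 0.21 (SE) and *ORC2* of -1.10 ± 0.29 (SE). *CDC6*, whose product loads the helicase together with the origin recognition complex, had 2.31 and 2.69 CPM with caffeine, against 10.8 and 6.82 CPM untreated, which are 43 to 154 counts per library. It fell by 1.81 ± 0.38 on the log2 scale (SE, adjusted p = 0.011, edgeR).

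Of the 6 MCM genes, *MCM2* and *MCM7* fell and *MCM3*, *MCM4*, *MCM5* and *MCM6* did not pass the test. Together 4 of the 12 origin recognition and MCM genes fell (33.3%), against 23.6% of all genes tested. Of the 12 values 11 were negative, against 3384 of 6759 over all genes, and the medians were -0.78 and -0.003. In 8 of the 12 genes both caffeine libraries lay below both untreated libraries, and in 1 both lay above. Over all genes these shares were 37.6% and 37.4%. *MCM7* had 10.3 and 7.59 CPM with caffeine, against 27.5 and 16.5 CPM untreated, a log2 fold change of -1.30 ± 0.34 (SE, adjusted p = 0.022, edgeR). *MCM2* had a log2 fold change of -0.79 ± 0.22 (SE, adjusted p = 0.028, edgeR). The value of *MCM3* was close to that of *MCM7*, at -1.26 ± 0.42 (SE), but its adjusted p was 0.052, and *MCM4* and *MCM6* had -0.86 ± 0.35 and -0.77 ± 0.38 (SE). Replicates of the same group differed in most MCM genes. *MCM3* had 21.9 and 10.9 CPM in the caffeine libraries and 49.4 and 29.1 CPM in the untreated libraries, so that replicate 1 was higher than replicate 2 by 2.01 and 1.70 times. In caffeine and untreated libraries the same ratio was 1.81 and 1.45 for *MCM4*, 1.64 and 1.81 for *MCM6*, 1.35 and 1.66 for *MCM7* and 1.14 and 1.25 for *MCM2*. In *MCM5* it was 0.95 and 0.69. The 6 genes used as markers of the M to G1 transition had a summed level of 748 and 454 CPM with caffeine and 861 and 571 CPM untreated, also higher in replicate 1 of each group. So was the sum of the 7 G2/M markers, at 330 and 236 CPM with caffeine and 669 and 454 CPM untreated. Not every marker followed: *RME1* was lower in replicate 1 of both groups, *PCL9* and *CLB1* in the untreated group and *CLB2* in the caffeine group. The part of either list in the spread of the MCM genes was not tested. *CDC45*, the gene of the factor that turns the loaded MCM ring into the active helicase, stood apart from the MCM genes. It had 4.30 and 5.12 CPM with caffeine, against 23.6 and 22.3 CPM untreated, and fell by 2.28 ± 0.26 on the log2 scale (SE, adjusted p = 0.0013, edgeR).

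Polymerase α with primase and polymerase ε showed the largest differences between subunits of 1 complex. *POL1*, the catalytic subunit of polymerase α, had 17.2 and 20.8 CPM with caffeine, against 113.6 and 83.2 CPM untreated, and fell by 2.37 ± 0.26 on the log2 scale (SE, adjusted p = 0.0012, edgeR). *POL12*, its B subunit, had 13.6 and 10.7 CPM, against 64.4 and 50.0 CPM, and fell by 2.24 ± 0.25 (SE, adjusted p = 0.0013, edgeR). Of the primase genes of the same complex, *PRI2* fell by 1.19 ± 0.19 (SE), and *PRI1*, the catalytic subunit, did not pass the test. *PRI1* had 34.8 and 28.1 CPM with caffeine, against 25.5 and 26.2 CPM untreated, with a log2 fold change of 0.28 ± 0.21 (SE, adjusted p = 0.32, edgeR), and it was called higher with scaling by library size only. The subunits of polymerase α with primase thus spanned log2 fold changes from -2.37 to 0.28. *PRI1* ends 78 bp from the end of *EGH1*, which lies on the other strand, and any share of its counts from that neighbour was not tested.

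In polymerase ε, *POL2*, the catalytic subunit, had 24.4 and 26.3 CPM with caffeine, against 158.3 and 95.6 CPM untreated, and fell by 2.32 ± 0.30 on the log2 scale (SE, adjusted p = 0.0021, edgeR). The small histone-fold subunits *DPB4* and *DPB3* fell by 1.60 ± 0.23 and by 0.66 ± 0.22 (SE). *DPB2*, the essential B subunit, had a log2 fold change of -0.27 ± 0.22 (SE, adjusted p = 0.34, edgeR). It has 2 boxes upstream, as *POL12* has, and ends 57 bp from the end of *BET2*, which lies on the other strand. Any share of its counts from that neighbour was not tested. *DPB3*, with an adjusted p of 0.049 in edgeR, was the weakest of the 21 calls, and DESeq2 did not call it. In polymerase δ, *POL32*, the accessory subunit, had 6.34 and 9.05 CPM with caffeine, against 22.6 and 21.2 CPM untreated, and fell by 1.51 ± 0.27 (SE, adjusted p = 0.0066, edgeR). *POL3*, the catalytic subunit, fell by 0.70 ± 0.22 (SE). The catalytic subunits of polymerases α and ε thus had larger falls than that of polymerase δ, a comparison between genes that was not tested.

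All 5 clamp loader genes had lower levels in both caffeine libraries, against 37.6% of all genes, and 3 of them passed the test, against 23.6% of all genes. *RFC3* had 26.2 and 20.8 CPM with caffeine, against 78.2 and 80.0 CPM untreated, and fell by 1.75 ± 0.22 on the log2 scale (SE, adjusted p = 0.0019, edgeR). *RFC2* and *RFC5* fell by 0.93 ± 0.20 and by 0.81 ± 0.20 (SE), and *RFC1* and *RFC4* had -0.60 ± 0.23 and -0.53 ± 0.20 (SE) with adjusted p of 0.075 and 0.071 in edgeR. *RFC3* has neither motif in the 500 bp upstream, and had the largest fall among the 18 genes without ACGCGT.

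In RPA, *RFA3*, the smallest subunit, had 74.4 and 76.1 CPM with caffeine, against 138.7 and 167.1 CPM untreated, and fell by 1.02 ± 0.22 on the log2 scale (SE, adjusted p = 0.012, edgeR). *RFA2* fell by 0.83 ± 0.20 (SE). *RFA1*, the large DNA-binding subunit, had 65.8 and 53.8 CPM with caffeine, against 63.8 and 71.3 CPM untreated, so the groups overlapped, and its log2 fold change was -0.18 ± 0.21 (SE, adjusted p = 0.54, edgeR). *CDC9*, the ligase gene, had 17.4 and 17.0 CPM with caffeine, against 41.1 and 29.1 CPM untreated, and fell by 1.03 ± 0.24 (SE, adjusted p = 0.017, edgeR).

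**Figure D2:**
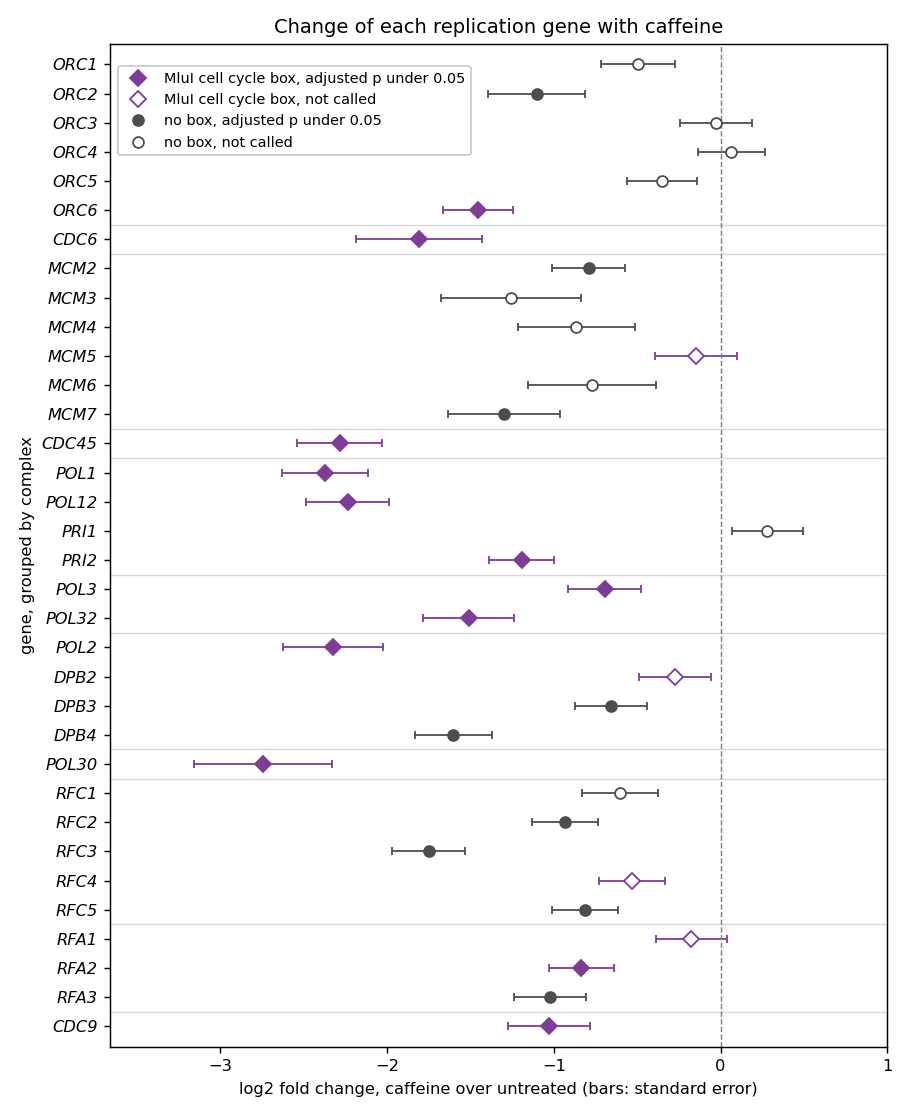
Log2 fold change of each of the 34 genes, caffeine over untreated, with its standard error. Purple diamonds mark genes with the MluI cell cycle box within 500 bp upstream, dark circles genes without it, and filled symbols an adjusted p under 0.05; the 5 largest falls, from -2.24 to -2.75, are all of genes with the box, and *MCM5*, *DPB2*, *RFC4* and *RFA1* have the box and are open.

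By promoter, 12 of the 16 genes with the MluI cell cycle box fell, against 9 of the 18 genes without it. The median log2 fold changes were -1.32 with the box and -0.80 without it, and all 16 genes with the box had negative values. Over all genes tested 105 of the 315 with the box (33.3%) and 1328 of the 5451 without it (24.4%) fell, with medians of -0.22 and 0.004. The box was therefore neither shared by all genes that fell nor absent from those that did not pass the test.

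Most of the called replication genes outside the 34 fell. Of 29 further replication genes 12 fell (41.4%), 2 rose and 15 did not pass the test, with a median log2 fold change of -0.74. Over all genes tested 23.6% fell and 22.2% rose. The falls above 1 on the log2 scale included *CTF18* (-2.42), a subunit of an alternative clamp loader, *RNH202* (-2.15) and *RNH203* (-2.05), subunits of RNase H2, *RAD27* (-1.98), the flap nuclease of Okazaki fragments, and *TOP2* (-1.84), topoisomerase II. *CSM3* (-1.61), *TOF1* (-1.57) and *MRC1* (-1.48), which act together at the fork, *ELG1* (-1.38), which unloads PCNA, and *POL31* (-1.21), the remaining subunit of polymerase δ, fell as well. The 2 genes that rose were *CDC7* (1.19), the kinase that acts on the loaded MCM helicase, and *SLD7* (1.17), a partner of the initiation factor Sld3. *CDC7* had 18.7 and 21.8 CPM with caffeine, against 6.70 and 11.0 CPM untreated.

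Lists of cell cycle markers were set beside the replication genes. All 7 G1/S markers (*CLN1*, *CLN2*, *PCL1*, *CLB5*, *CLB6*, *RNR1*, *CDC21*) fell, with a median log2 fold change of -3.30, and their summed level was 37.3 and 41.1 CPM with caffeine, against 372 and 282 CPM untreated. Of the 7 G2/M markers 5 fell, with a median of -1.34. Of the 8 histone genes 3 fell, with a median of -0.17, and of the 6 M/G1 markers 1 fell and 1 rose, with a median of -0.21, against -0.003 over all genes. Over all genes tested 23.6% fell and 22.2% rose. Among the 6 regulators of G1/S transcription *MBP1* rose by 0.80 ± 0.23 and *SWI4* fell by 0.77 ± 0.24 on the log2 scale (SE), and *SWI6*, *STB1*, *WHI5* and *NRM1* did not pass the test. In these bulk cultures fewer cells in a phase and less RNA per cell cannot be told apart, and the part of the cell cycle markers in the result was not tested.

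**Figure D3:**
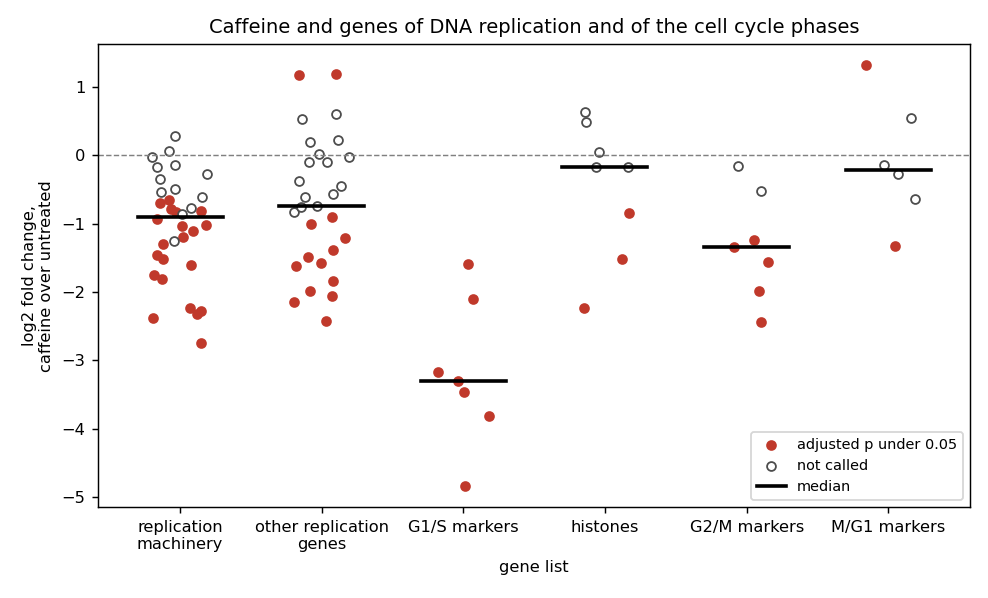
Log2 fold change, caffeine over untreated, of each gene (points, spread sideways at random) in the replication machinery, the further replication genes and the 4 cell cycle marker lists. Red points passed an adjusted p under 0.05, open points did not, and the bar is the median of the list; the median is -0.90 for the 34 genes and -3.30 for the G1/S markers.

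The *yap1* mutant was compared with WT carrying the same vector to ask which genes depend on Yap1. None of the 34 genes was called in either direction by edgeR, and DESeq2 called none as well. Over all 6781 genes tested 0.0147% were lower and 0.059% higher. At an unadjusted p under 0.05 the edgeR test gave 4 of the 34 genes, *ORC1*, *CDC45*, *POL2* and *DPB2*, all with negative values and adjusted p of 0.34 to 0.46, and over all genes 4.85% were lower at that p. The median log2 fold change was -0.13 over the 34 genes and -0.003 over all genes. All 3 mutant libraries lay below all 3 WT libraries with vector in 4 genes (*MCM4*, *POL1*, *POL2* and *DPB2*) and above them in none, against 8.04% and 7.37% of all genes.

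The Yap1 overexpression strain was compared with the same WT libraries. None of the 34 genes was called by edgeR or by DESeq2, against 0.0295% lower and 0.442% higher over all genes. At an unadjusted p under 0.05 the edgeR test gave 6 genes, of which *ORC1*, *CDC45*, *POL1*, *POL2* and *RFA1* had negative values and *ORC5* a positive one, with adjusted p of 0.40 to 0.50. Over all genes 4.07% were lower and 5.35% higher at that p. The median log2 fold change was -0.21 over the 34 genes and -0.002 over all genes. Values were negative in 30 of the 34 genes and in 3400 of the 6781 genes tested. All overexpression libraries lay below all WT libraries with vector in 9 genes (*ORC1*, *ORC2*, *MCM4*, *CDC45*, *POL1*, *POL2*, *RFA1*, *RFA3* and *CDC9*) and above them in *ORC5*, against 7.14% and 8.05% of all genes. The comparisons of both strains share the 3 WT libraries with vector. Scaling by library size only shifted the median of all genes by 0.37 for the mutant and by 0.45 for the overexpression strain, and the medians of the 34 genes were then 0.26 and 0.23.

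Levels in the plasmid libraries are given for *POL2*, *CDC45* and *POL30*. Over the 34 genes the log2 fold changes over WT with vector ran from -0.59 to 0.67 in the mutant and from -0.59 to 0.62 in the overexpression strain; the highest in both was that of *CDC6*, which was not called. *POL2* had 39.4, 46.5 and 41.8 CPM in the *yap1* mutant and 38.3, 37.6 and 45.0 CPM in the overexpression strain, against 60.5, 58.6 and 46.9 CPM in WT with vector. Its log2 fold changes over WT with vector were -0.38 ± 0.14 and -0.46 ± 0.14 (SE). *CDC45* had 6.31, 9.27 and 7.63 CPM in the mutant and 7.52, 7.69 and 7.89 CPM in the overexpression strain, against 14.4, 8.02 and 12.5 CPM in WT with vector. The WT libraries with vector were the more spread ones in both genes. *POL30* had 39.9, 43.2 and 32.3 CPM in the mutant and 36.3, 32.9 and 29.5 CPM in the overexpression strain, against 53.1, 17.9 and 45.5 CPM in WT with vector. The low value of 17.9 CPM belongs to replicate 2, the library that stood apart. Its histone genes summed to 138 CPM, against 1056 and 1090 CPM in replicates 1 and 3 of that group. The G1/S markers summed to 86.3 CPM, against 129.5 and 134.0 CPM, and the M/G1 markers to 175 CPM, against 371 and 383 CPM. The G2/M markers summed to 214.2 CPM, against 248.4 and 214.6 CPM. The part of these differences in the comparisons was not tested. Without replicate 2 the edgeR test again called none of the 34 genes in either comparison with WT with vector, and the medians were -0.13 and -0.23.

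The mutant and the overexpression strain were also compared directly, without using the WT libraries for the means. None of the 34 genes was called by edgeR or by DESeq2, while over all genes 0.664% were lower and 0.31% higher in the mutant. *ORC5* (lower in the mutant) and *RFA1* (higher) had an unadjusted p under 0.05 in edgeR, against 4.56% lower and 3.33% higher over all genes. *ORC5*, chosen for description after its values were seen, had 8.84, 12.5 and 11.2 CPM in the mutant, against 18.3, 16.3 and 18.4 CPM in the overexpression strain, a log2 fold change of -0.70 ± 0.21 (SE, adjusted p = 0.19, edgeR). The strains did not overlap. WT with vector had 9.65, 15.3 and 11.8 CPM. The edgeR test called *ORC5* when replicate 2 of WT with vector was left out (adjusted p = 0.026) and when only the 6 libraries compared were fitted (adjusted p = 0.017), and its adjusted p ranged from 0.017 to 1.00 over all alternatives. *ORC5* starts 219 bp after the end of *POL2* on the same strand. *RFA1* had 27.3, 25.9 and 22.9 CPM in the mutant, against 22.4, 18.2 and 20.1 CPM in the overexpression strain, a log2 fold change of 0.32 ± 0.14 (SE, adjusted p = 0.58, edgeR). In all, the mutant lay below the overexpression strain without overlap in 2 genes (*ORC5* and *RFA2*) and above it in 7 (*ORC3*, *MCM5*, *DPB3*, *RFC3*, *RFC4*, *RFC5* and *RFA1*), against 9.94% and 8.86% of all genes.

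**Figure D4:**
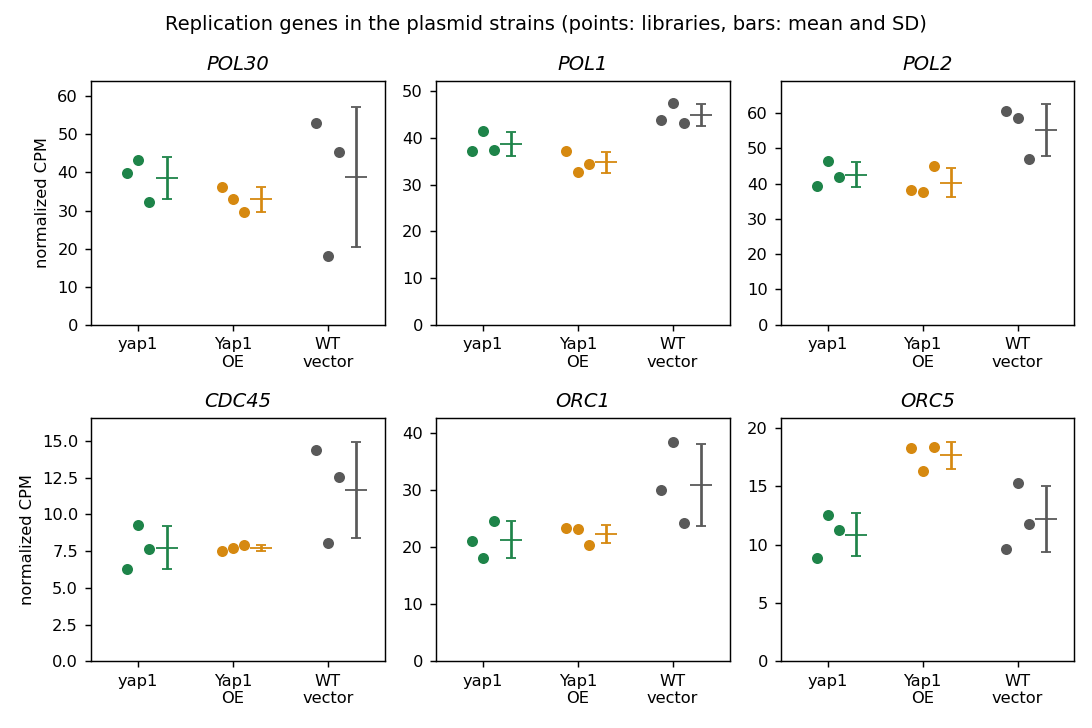
Normalized CPM of *POL30*, *POL1*, *POL2*, *CDC45*, *ORC1* and *ORC5* in the *yap1* mutant with vector, the Yap1 overexpression strain (Yap1 OE) and WT with vector, with the 3 libraries of each as points and the mean with its SD beside them. The strains overlap for *POL30*, where WT with vector runs from 17.9 to 53.1 CPM, and *ORC5* is higher in all 3 overexpression libraries than in the other 6.

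WT with vector was last set against untreated WT in a fit of all 13 libraries, to place the 34 genes across both experiments. In this comparison effects of the plasmid, of the batch of libraries and of the medium, if it differed, cannot be separated. The share of rRNA rows also differed, at 74.97%, 63.64% and 62.27% with the vector and 18.45% and 14.66% in untreated WT. In WT with vector 7 of the 34 genes were lower (20.6%) and none higher by edgeR, against 11.9% lower and 11.2% higher over all 6920 genes tested. DESeq2 called 10 lower, with *POL30*, *POL3* and *POL32* added to the 7, and none higher. At an unadjusted p under 0.05 edgeR gave 13 lower and none higher, against 18.3% and 16.7% of all genes. The 7 were *CDC6*, *RFC4*, *POL12*, *RFC3*, *PRI2*, *RFA2* and *RFA1*, with log2 fold changes from -1.33 to -0.53. Of the 16 genes with the MluI cell cycle box 6 were lower, and of the 18 without it 1 was. Over all genes tested 44 of the 316 with the box (13.9%) and 705 of the 5505 without it (12.8%) were lower. The 7 calls differ from the caffeine result in that *RFA1* and *RFC4*, which did not pass the test with caffeine, were called here. By contrast *POL1*, *POL2* and *CDC45* had only -0.26 ± 0.16, -0.32 ± 0.20 and -0.11 ± 0.26 (SE). The caffeine comparison and this one use the same untreated libraries as reference, so they are not independent. *RFC4* had 17.5, 8.73 and 15.6 CPM on the scale of this fit in WT with vector, against 28.4 and 26.5 CPM in untreated WT. In 14 of the 34 genes all libraries of WT with vector lay below both untreated libraries, and in none above, against 23.9% and 19.7% of all genes. The number of genes called lower was 0 without untreated replicate 1, 0 with only the 5 libraries compared, 2 with upper-quartile normalization, 3 without untreated replicate 2, 4 without WT with vector replicate 3, 4 without overexpression replicate 3 and 11 without WT with vector replicate 2.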

How the data were processed

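The deposited values are raw counts per gene, 1 list per library; the authors aligned QuantSeq 3′ reads with Bowtie2 and counted unique and multiple alignments with Bedtools. The labels name the build sacCer3, which is R64; the counting annotation and versions are not given in the sources used here. Lists were joined by name; 69 of 7126 rows were joined by position, none of them a replication gene. A table of mouse genes was not used. No replication gene overlaps another annotated gene, but some end close to a gene on the other strand, and the counts were taken as not separated by strand.

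Fold changes came from edgeR 4.0.16 in R 4.3.3 (filterByExpr, TMM, robust quasi-likelihood test, Benjamini-Hochberg at 0.05 over all genes). The 9 plasmid libraries, the 4 others and all 13 were fitted separately. SE was derived from the log2 fold change and the F statistic. CPM of different genes are not comparable, since reads are 3′ tags. The biological coefficient of variation was 25.1% to 25.8%. Intervals were not computed. The test was checked on simulated data. DESeq2 1.42.0, other scalings and filters, a replicate block, only the compared libraries and each library left out were the alternatives. Promoters were read from R64. Per-library values are given for the 5 largest falls with caffeine, *POL30* and the most changed gene of each complex. Genes named as chosen after their values were seen, and *ORC3*, *ORC4*, *PRI1*, *MCM3*, *CDC7*, *POL2*, *CDC45* and *RFC4* in the places outside this rule, were added later. The genes, lists and rules were chosen with earlier results of these data known.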

Additional observations from a re-analysis of the deposited data

How the results depend on the processing

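For caffeine, the falls numbered 19 to 21 with DESeq2, upper-quartile normalization, DESeq2 size factors, without the rRNA rows and with both other filters on low counts. Each of these lost *DPB3*, and all but the fit without a filter gained *MCM3*. The 19 falls came from the filter at 100 counts in every group mean, which tested only 32 of the 34 genes and left out *CDC6* and *CDC45*. Scaling by library size only shifted all genes by 0.375 on the log2 scale and gave 12 falls and 1 rise, *PRI1*. Leaving out 1 library gave 10 to 15 falls. In both comparisons with WT with vector no alternative called any of the 34 genes; the medians were 0.255 (*yap1* mutant) and 0.226 (overexpression strain) by library size only, which shifted all genes by 0.365 and 0.446. Between mutant and overexpression strain, 1 gene, *ORC5*, was called lower with only the compared libraries, and leaving out 1 library gave 0 to 1. For WT with vector against untreated WT, library size only shifted all genes by -0.933 and gave 33 genes lower with a median of -1.304, upper-quartile normalization gave 2, only the compared libraries gave 0, and leaving out 1 library gave 0 to 11. Alternatives were followed gene by gene for all 34 genes with caffeine and for 11 gene and comparison pairs picked from the other comparisons. Of these 619 values 15 were newly called, 71 lost the call and none that was called changed sign; the causes were not tested. The share of the 34 promoters with the motif was 47.1% for ACGCGT and 8.82% for CACGAAA.

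The labels do not say that replicate numbers mark a shared batch. Same-numbered libraries without plasmid deviated together (correlation 0.41, a single contrast of 2 pairs), and a replicate block gave 26 falls with caffeine. In the plasmid libraries the same-number correlations ran from -0.25 to 0.18, not every library correlated best with its own number, and the block gave no call; it gave 5 genes lower in WT with vector against untreated WT. The smallest counts, 16 to 98 per plasmid library, limit what can be said of *CDC6*.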
